A study of Arabidopsis thaliana with 16 samples.

Results

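The subject is 8 nuclear genes of Arabidopsis thaliana: AT1G52690 (LEA7), AT3G02480, AT5G06760 (LEA4-5), AT2G35300 (LEA18), AT1G32560 (LEA4-1), AT1G01470 (LEA14), AT2G17840 (ERD7) and AT1G30360 (ERD4). They were taken by locus identifier as 6 LEA genes and 2 ERD genes that are not dehydrins, and all 8 were found among the 34262 features counted. Late embryogenesis abundant (LEA) proteins are small, very hydrophilic proteins that build up as seeds dry and in vegetative tissue that loses water; most are disordered in solution and are thought to shield membranes and enzymes. Genes called early responsive to dehydration (ERD) were first isolated as transcripts that accumulate soon after Arabidopsis plants begin to dry out, and they encode proteins of many unrelated kinds. Freezing and chilling also withdraw water from cells, and abscisic acid and the CBF transcription factors are known regulators of many genes of both classes.

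The study concerned the mark N6-methyladenosine (m6A) on mRNA in seedlings under cold stress. The cold groups were whole Col-0 seedlings, 20 days old, kept at 4 °C for 24 h, and the control groups were seedlings of the same ecotype and age that were left untreated at 22 °C. The labels name no mutation or transgene, and all seedlings had been raised on agar plates with 12 h of light a day. Each condition gave 3 m6A immunoprecipitations (supplied as peak lists), 3 mRNA libraries and 2 polysome libraries, made from the RNA bound to ribosomes. The labels call the mRNA samples polyA RNA and the polysomal samples total RNA, and they do not say whether replicates came from separate cultures, so each p-value measures the spread between these samples, which may be technical.

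Gene counts per library lay between 3.28 and 10.4 for cold mRNA and between 8.43 and 10.97 for control mRNA in units of 1e+06. The polysome libraries were deeper, with 22.2 and 13.0 in the cold and 20.5 and 21.5 in the control condition on this scale. Cold mRNA replicate 3 was the shallowest library, and 82.2% of its tally was alignments that were not unique. This share was 61.9% to 66.3% in the other mRNA libraries and 4.65% to 5.50% in the polysome libraries. Organelle genes held 22.1% of the gene counts of cold mRNA replicate 3, against 6.28% to 8.70% in the other mRNA libraries. The 5 green leaf markers summed to at least 21699 CPM (gene counts scaled to a library of 1e+06) in every library. Of 10 seed and embryo markers, SESA1, SESA3 and CRU2 had no read in any library; the whole list summed to 1.13 to 2.64 CPM in cold mRNA and 3.38 to 6.19 CPM in control mRNA, and to 2.38 and 1.59 CPM in cold polysomes and 11.9 and 1.33 CPM in control polysomes. The 10 root markers summed to 87.1, 78.9 and 186 CPM in cold mRNA replicates 1, 2 and 3 and to 98.6, 93.4 and 43.1 CPM in control mRNA, against 8.57 and 8.63 CPM in cold polysomes and 18.0 and 13.7 CPM in control polysomes. The part of these markers in the results was not tested. In whole seedlings, fewer cells that express a gene and less RNA per cell cannot be told apart.

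LEA7 and AT3G02480 both fell in polysomal RNA, and LEA14, ERD7 and ERD4 all rose in mRNA. In edgeR's fits of cold against control with no replicate block, LEA4-5 did not pass in either kind of RNA. There LEA18 was too low for the mRNA test and did not pass in polysomal RNA, and LEA4-1 was too low for both. Calls of LEA4-5 and LEA18 as lower in mRNA appeared when control replicate 3 was left out. With a replicate block, edgeR called LEA4-5 lower in mRNA (adjusted p = 0.0214) and LEA18 lower in polysomal RNA (0.0252). The regions upstream of LEA7 and AT3G02480, which fell, and of LEA14 and ERD7, which rose, are shown because they hold elements known to act in cold and abscisic acid signalling. Each is the 250 bases before the annotated start in RefSeq's TAIR10.1 assembly, written 5′ to 3′ in the direction of transcription. Capitals mark ACGTG, the core of the element bound by abscisic acid response factors, and CCGAC, the core of the C-repeat or dehydration-responsive element bound by CBF and DREB factors, each on either strand.
LEA7, chr1:19619474-19619723, plus strand: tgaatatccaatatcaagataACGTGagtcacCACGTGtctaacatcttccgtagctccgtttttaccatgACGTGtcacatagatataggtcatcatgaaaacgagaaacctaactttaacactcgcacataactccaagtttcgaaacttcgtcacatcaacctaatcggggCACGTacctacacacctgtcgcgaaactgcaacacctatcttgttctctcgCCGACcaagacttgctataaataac
AT3G02480, chr3:511970-512219, plus strand: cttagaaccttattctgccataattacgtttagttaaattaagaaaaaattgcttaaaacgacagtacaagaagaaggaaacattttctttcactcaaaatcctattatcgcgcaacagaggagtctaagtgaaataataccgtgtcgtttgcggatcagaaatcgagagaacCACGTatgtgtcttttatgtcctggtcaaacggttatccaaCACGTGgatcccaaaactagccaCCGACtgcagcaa
LEA14, chr1:172949-173198, minus strand: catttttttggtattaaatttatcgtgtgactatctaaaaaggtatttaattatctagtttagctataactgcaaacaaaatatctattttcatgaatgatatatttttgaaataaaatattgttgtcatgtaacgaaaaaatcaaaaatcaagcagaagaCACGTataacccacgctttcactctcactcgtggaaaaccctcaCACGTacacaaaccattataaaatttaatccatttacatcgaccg
ERD7, chr2:7757930-7758179, minus strand: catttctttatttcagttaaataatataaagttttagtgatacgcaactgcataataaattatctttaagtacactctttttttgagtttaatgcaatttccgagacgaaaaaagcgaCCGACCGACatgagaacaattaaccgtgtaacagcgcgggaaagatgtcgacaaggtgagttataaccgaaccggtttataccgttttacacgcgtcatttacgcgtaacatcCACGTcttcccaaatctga

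Over a window of 250 bases before to 50 bases after the start, ACGTG was present on at least 1 strand in 7 of the 8 genes, against 26.7% of 27443 promoters of protein-coding genes. CCGAC was also present in 7 of the 8, against 15% of those promoters, and both were present in 7, against 4.71%. The motifs can share at most 2 bases, and the palindrome CACGTG counts as an ACGTG on each strand. LEA7 had 5 ACGTG matches, which began 229, 218, 217, 179 and 76 bases before the start, and AT3G02480 had 7, of which 3 lay upstream of the start. LEA14 had 2, at 89 and 45 bases, and its CCGAC, which spans the start, is not in capitals. ERD7 had 1, at 19 bases, with CCGAC in tandem at 132 and 128 bases. LEA4-5 and LEA18 had 4 ACGTG matches each, LEA4-1 had 5, and each of these had 1 CCGAC. ERD4, which rose in mRNA, held neither motif in this window. Genes that rose and genes that fell thus both carried the motifs; a match describes letters and is not evidence of a bound factor.

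LEA7 belongs to the LEA_4 family, whose members are disordered in water and are known to form amphipathic helices on drying. It lies at chr1:19619724-19621534 on the plus strand, and its end overlaps the oppositely oriented AT1G52695 by 297 bases, so reads there cannot be told apart without the strand setting of the counting. In polysomal RNA it had 0.925 and 1.06 CPM in the cold libraries, against 31.0 and 27.4 CPM in the control libraries. The groups lay far apart, and replicates within each were close. Polysomal LEA7 fell by 4.90 on the log2 scale (SE 0.284), which is 29.9-fold, with an adjusted p of 0.0133 in edgeR's quasi-likelihood test with Benjamini-Hochberg adjustment. It had the lowest p of all 19239 genes tested there. With a spread shared over all 10 libraries the adjusted p was 0.0516.

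In mRNA, LEA7 had 5.0, 7.53 and 0 CPM in cold replicates 1, 2 and 3, against 27.6, 28.9 and 0.928 CPM in control replicates 1, 2 and 3. The count of 0 in cold replicate 3 allows up to 1.13 CPM at 3 counts. Replicates 1 and 2 were lower in the cold, whereas replicate 3 was near 0 in both conditions and made the groups overlap. The log2 change was -2.02 (SE 1.26, edgeR adjusted p = 0.295), and it was -2.56 (adjusted p = 0.0454) without control replicate 3. Without both mRNA libraries numbered 3, an alternative chosen after seeing the data, it was -2.23 (SE 0.228, adjusted p = 0.00122).

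AT3G02480 (chr3:512220-513036, plus strand) encodes a short protein of the same LEA_4 family, of 68 residues by its coding length of 207 bases with the stop codon. Its polysomal level was 4.28 and 1.15 CPM in the cold libraries and 64.3 and 20.7 CPM in the control libraries. The groups did not overlap, although each varied by over 3 times within itself. It fell by 3.91 on the log2 scale in polysomal RNA (SE 0.764, edgeR adjusted p = 0.0398). The change was -5.20 without cold replicate 1, -3.31 without cold replicate 2, -2.89 without control replicate 1 and -4.52 without control replicate 2. Each of these fits leaves 1 library in a group, so only the size is given. With no filter on low counts the change was -3.91 (edgeR adjusted p = 0.113). With a spread shared over all 10 libraries it was -3.90 (0.0991), and the call was lost in both. In mRNA it had 11.4, 8.90 and 1.51 CPM in cold replicates and 17.8, 10.7 and 0.155 CPM in control replicates. These groups overlapped, replicate 3 was again the lowest of both, and the log2 change was -0.31 (SE 1.22, edgeR adjusted p = 0.879).

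LEA4-5 (chr5:2089445-2090430, minus strand) is a LEA_1 protein; this family is known to protect enzymes from inactivation on drying and freezing in vitro. In mRNA it had 8.39, 8.08 and 3.40 CPM in cold replicates and 21.3, 31.6 and 3.48 CPM in control replicates. The control values of replicates 1 and 2 exceeded all cold values, and the third did not. The log2 change in mRNA was -1.48 (SE 0.782, edgeR adjusted p = 0.219), and it was -1.95 (adjusted p = 0.00475) without control replicate 3 and -1.74 (adjusted p = 0.00265) without both libraries numbered 3, but -0.87 (adjusted p = 0.502) without control replicate 2. In polysomal RNA it had 6.13 and 12.1 CPM in the cold libraries and 7.71 and 8.70 CPM in the control libraries. The control values lay between the cold ones, and the log2 change was 0.12 (SE 0.378, edgeR adjusted p = 0.863).

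LEA18 (chr2:14862779-14863412, minus strand), the second LEA_1 gene, was scarce. It had 3, 3 and 0 counts in cold mRNA and 31, 19 and 0 counts in control mRNA, too few in too many libraries to enter the mRNA test. Without control replicate 3 it entered, with a log2 change of -3.24 (edgeR adjusted p = 0.00963), and without both libraries numbered 3 it was -3.05 (0.0112). It also entered without cold replicate 1, 2 or 3, with changes of -2.82, -2.81 and -2.46, and did not pass (adjusted p of 0.335, 0.328 and 0.279), nor did it over all 10 libraries (-2.63, 0.155) or with no filter on low counts (-2.65, 0.229). In polysomal RNA it had 4 and 0 counts in the cold libraries and 28 and 16 counts in the control libraries. Those groups did not overlap, but the log2 change of -3.18 (SE 1.0) did not pass (edgeR adjusted p = 0.10). It was -2.48 without cold replicate 2. Without cold replicate 1 the fit gave -7.25, but the cold library left had 0 counts, so that size is not a measured one. LEA4-1 (chr1:11774484-11775442, plus strand), the third LEA_1 gene, had 0, 0 and 1 counts in cold mRNA, 0, 2 and 5 counts in control mRNA, 1 and 3 counts in cold polysomes and 5 and 7 counts in control polysomes, and no difference was detectable at this depth.

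LEA14 (chr1:171525-172948, minus strand) is a LEA_2 protein, an atypical kind that folds into a stable domain. Its mRNA had 161, 200 and 130 CPM in the cold libraries, against 38.1, 45.2 and 41.1 CPM in the control libraries. Every cold value was above every control value, and replicate 3 was not apart in the control group. It rose by 1.90 on the log2 scale (SE 0.191, edgeR adjusted p = 5.23e-04), a 3.74-fold change. In polysomal RNA it had 216 and 620 CPM in the cold libraries and 134 and 154 CPM in the control libraries. The cold libraries were both higher but far from each other, and the log2 change of 1.53 (SE 0.499) gave an edgeR adjusted p of 0.108; DESeq2 gave 1.55 with an adjusted p of 0.00685. In edgeR it was 2.11 without cold replicate 1 and 0.59 without cold replicate 2, so its size turned on cold replicate 2. Each of those fits leaves 1 cold library, so only the size is given. With a spread shared over all 10 libraries the edgeR adjusted p was 0.0239.

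ERD7 (chr2:7755605-7757929, minus strand) carries a senescence and dehydration domain, is known to bind membrane lipids, and takes part in membrane remodelling under cold. Its mRNA had 87.4, 153 and 69.1 CPM in the cold libraries, against 26.1, 26.2 and 31.5 CPM in the control libraries. The groups did not overlap, and ERD7 rose by 1.81 on the log2 scale (SE 0.299, edgeR adjusted p = 0.00503). Its polysomal level was 88.6 and 232 CPM in the cold libraries and 75.1 and 49.6 CPM in the control libraries. The cold values were again both higher and unequal, with a log2 change of 1.34 (SE 0.481, edgeR adjusted p = 0.130; DESeq2 1.37, adjusted p = 0.0212). In edgeR it was 1.90 without cold replicate 1 and 0.51 without cold replicate 2, fits that each leave 1 cold library.

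ERD4 (chr1:10715482-10718997, plus strand) belongs to the OSCA family of membrane proteins, whose best known members are calcium-permeable channels opened by osmotic and mechanical stress. It had 469, 568 and 438 CPM in cold mRNA, against 177, 135 and 97.9 CPM in control mRNA. All cold libraries were above all control libraries, and ERD4 rose by 1.77 on the log2 scale (SE 0.229, edgeR adjusted p = 0.00147). In polysomal RNA it had 478 and 786 CPM in the cold libraries and 411 and 294 CPM in the control libraries, and the log2 change of 0.83 (SE 0.357) did not pass (edgeR adjusted p = 0.186). Both cold polysome libraries were above both control ones, and the change was 1.16 without cold replicate 1 and 0.44 without cold replicate 2.

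**Figure D1:**
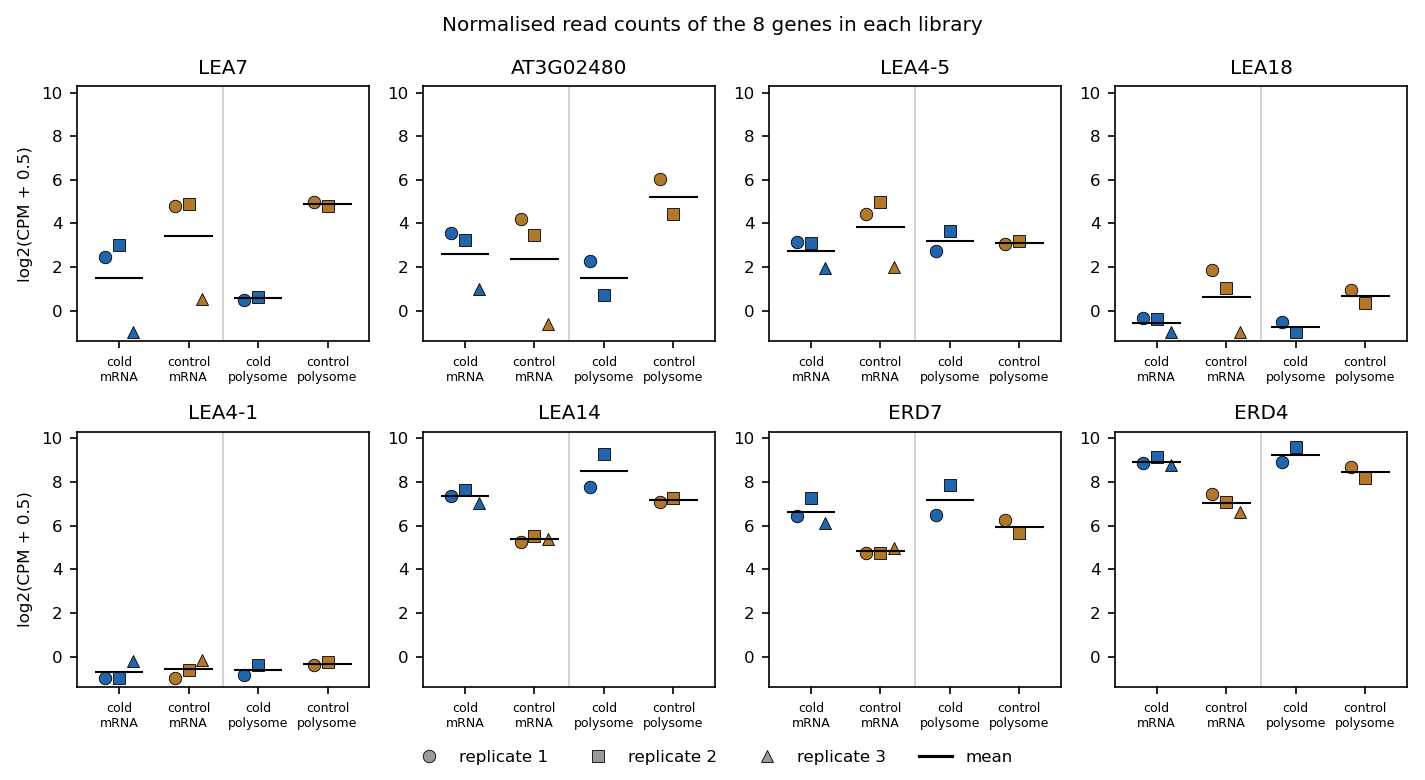
Normalised read counts of each gene in the 10 count libraries, as log2(CPM + 0.5), with cold left of control for mRNA and for polysomal RNA; symbols give the replicate and bars the mean. LEA7, AT3G02480, LEA4-5 and LEA18 were lowest in replicate 3 of both mRNA groups, whereas LEA14, ERD7 and ERD4 were higher in all 3 cold mRNA libraries than in any control one.

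Read against all genes, 3 of the 6 members tested in mRNA rose (LEA14, ERD7 and ERD4), where 13.4% of 19261 tested genes rose, and 0 fell, where 12.3% fell. No member fell at an unadjusted p under 0.05 in edgeR; DESeq2 called 0 lower, with 1 at an unadjusted p under 0.05. The cold and control mRNA groups did not overlap, with cold higher, for the same 3 genes, against 26.5% of genes tested, and for 0 with cold lower, against 18.4%. Without control mRNA replicate 3, and without both mRNA libraries numbered 3, LEA18 entered the test and 3 members (LEA7, LEA4-5 and LEA18) fell. The 12.3% above is from the fit with every mRNA library, and the share of all genes that fell in these fits is not given here. In polysomal RNA 2 of the 7 tested fell (LEA7 and AT3G02480), where 3.95% of 19239 genes fell, and 0 rose, where 3.87% rose. At an unadjusted p under 0.05, 2 were higher. DESeq2 called those 2, LEA14 and ERD7, where it called 1697 genes higher of 23859 with any read. It gave some of these genes no adjusted p, so that share is not like the one of edgeR. Polysomal groups did not overlap with cold lower for LEA7, AT3G02480 and LEA18, against 30.5% of genes, and with cold higher for LEA14, ERD7 and ERD4, against 30.0%.

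Whether polysomal RNA changed by another amount than mRNA was tested as the interaction over all 10 libraries. Without a replicate block, none of the 7 members tested passed in edgeR or in DESeq2, where edgeR called 57 of 20001 genes (0.285%). The difference of log2 changes was -2.92 for LEA7 (SE 1.75, edgeR adjusted p = 0.545), -3.66 for AT3G02480 (SE 1.78, 0.447) and 1.55 for LEA4-5 (SE 1.04, 0.583). It was -1.0 for ERD4 (SE 0.416, adjusted p = 0.362), the only member with an unadjusted p under 0.05 (0.0347), and -0.44, -0.53 and -0.51 for LEA14, ERD7 and LEA18. Without both mRNA libraries numbered 3 it was -2.68 for LEA7 (SE 0.360, adjusted p = 0.0621). The nominal 95% intervals of LEA7 (-6.34 to 0.51) and LEA4-5 (-0.48 to 3.58) were wide with the mRNA replicates as they stand. All such intervals were a fixed normal multiple of the SE, which is too narrow for so few libraries. That of AT3G02480 (-7.15 to -0.166) was wholly negative, although its unadjusted p in edgeR was 0.0744. Calls therefore rest on the adjusted p and not on the intervals. Within the control condition, polysomal RNA held more LEA14 (log2 1.76, edgeR adjusted p = 0.00560) and ERD4 (1.34, 0.00705) than mRNA did, where 14.5% of genes were higher, and in the cold more LEA14 (1.32, 0.0380), where 4.14% were; library type and RNA type differ between these samples and cannot be told apart.

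**Figure D2:**
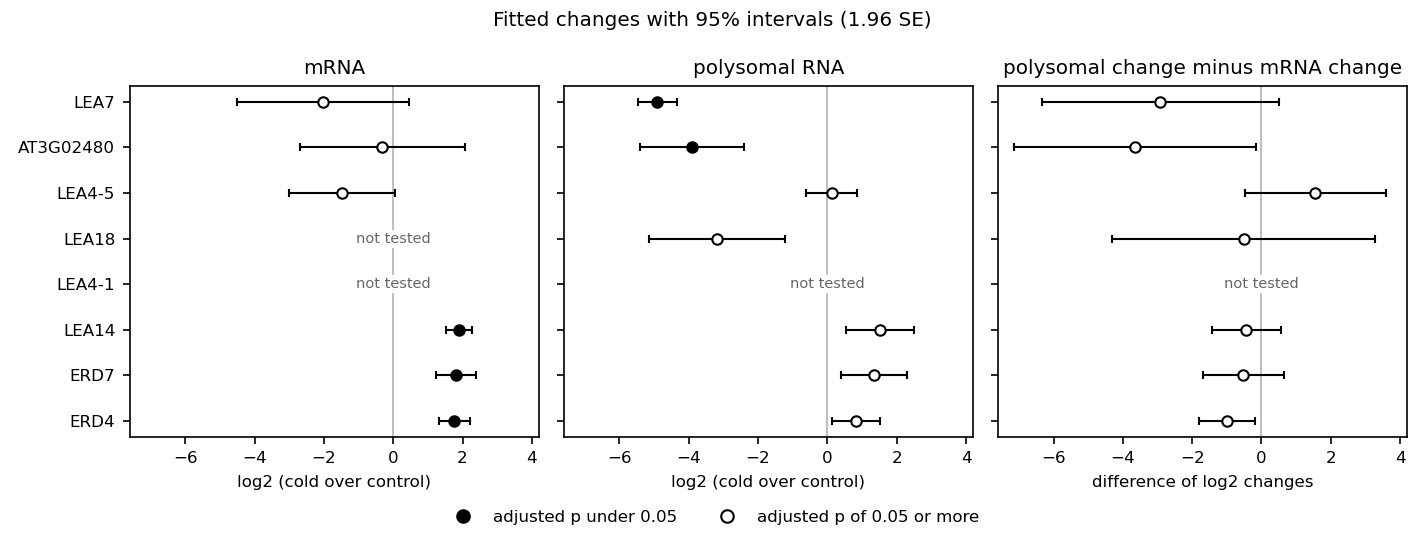
Log2 changes of the 8 genes, cold over control, in mRNA and in polysomal RNA, and the difference of the 2 changes. Intervals are nominal 95% ones, set as a fixed normal multiple of the SE, and are too narrow for so few libraries. That of ERD4 in polysomal RNA is wholly positive (0.127 to 1.53) at an unadjusted edgeR p of 0.0577. Filled circles passed an edgeR adjusted p of 0.05. LEA7 at -4.90 and AT3G02480 at -3.91 passed in polysomal RNA, LEA14, ERD7 and ERD4 at 1.90, 1.81 and 1.77 passed in mRNA, and no difference passed.

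Levels were ordered per kilobase of exon, as mean CPM per kb with SD. In cold mRNA (n = 3) ERD4 was first at 177 ± 24.2, then LEA14 at 122 ± 25.8, ERD7 at 54.2 ± 23.2, AT3G02480 at 13.2 ± 9.36, LEA4-5 at 7.33 ± 3.10 and LEA7 at 4.62 ± 4.24. In control mRNA (n = 3) ERD4 was at 49.0 ± 14.2 and LEA14 at 30.7 ± 2.65, then LEA7 at 21.2 ± 17.5, LEA4-5 at 20.8 ± 15.8, AT3G02480 at 17.4 ± 16.2 and ERD7 at 14.7 ± 1.61. The last 5 of these control levels overlapped in part, with LEA14 above ERD7 but not above every library of LEA7, LEA4-5 and AT3G02480, and the last 3 of the cold ones did not differ beyond their spread. LEA18 and LEA4-1 had means below 3 CPM per kb in every group. In cold polysomes (n = 2) LEA14 had a mean level per length of 310 ± 212 and ERD4 of 227 ± 78.3, which overlapped, with ERD4 the higher in replicate 1 and LEA14 in replicate 2; ERD7 had 84.1 ± 53.2, while LEA4-5 had 10.08 ± 4.65, AT3G02480 4.93 ± 4.03 and LEA7 1.10 ± 0.104. In control polysomes (n = 2) ERD4 had 127 ± 29.7 and LEA14 106 ± 10.5, within each other's spread, AT3G02480, which overlapped ERD4, LEA14 and ERD7, 77.3 ± 55.9, ERD7 32.7 ± 9.45, LEA7 32.3 ± 2.78 and LEA4-5 9.09 ± 0.777. LEA7 thus stood level with ERD7 in control polysomes, within their spread, and was at the low end of the 6 in cold polysomes.

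Across the 10 libraries, Pearson's r of log2(CPM + 0.5) was 0.95 between LEA14 and ERD7, 0.93 between LEA14 and ERD4, and 0.93 between ERD7 and ERD4. Among LEA7, AT3G02480, LEA4-5 and LEA18 it ran from 0.47 (AT3G02480 with LEA4-5) to 0.88 (LEA7 with LEA18). These 10 points share condition, library type and replicate 3, so the values describe a common pattern over libraries and carry no test. The 2 genes most like LEA7, out of 17776 compared, were RLP27 and AT5G23750 (r = 0.95 each), and those most like AT3G02480 were BT5 and AT5G66230 (0.92 each). LEA4-5 was most like AFP1 (0.95), a gene of the ABI5-binding protein family of abscisic acid signalling, and CORI3 (0.91). LEA14 was most like AT1G76140 and the cystatin gene CYSB (0.98 each), ERD7 like TET3 and AT4G32190 (0.97 each), and ERD4 like AT3G10300 (0.99) and AT1G07480 (0.98). For LEA18 the closest were AT4G36700 and SOBER1 (0.93 each), and for LEA4-1, which is near the floor, AT1G21200 (0.97) and AT4G16150 (0.96).

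For m6A, each gene was read on its own strand in the 6 peak lists, and a peak counted where its q was at most 0.05 and its summit lay in the gene. In plants m6A is placed by a nuclear methyltransferase complex, mostly near stop codons and in 3′ untranslated regions, at adenosines followed by C and preceded by a pair of purines. LEA7, LEA4-5 and ERD7 had a peak in at least 2 of 3 cold lists, and 30.6% of the 18815 protein-coding genes tested in mRNA did, a background that leaves out LEA18 and LEA4-1. LEA7, AT3G02480 and ERD7 had one in at least 2 of 3 control lists, against 37.2% of those genes. AT3G02480 was the only member with a peak in 2 control lists and in 0 cold lists, a pattern of 4.77% of genes. At a q of at most 0.01, LEA4-5 had no peak in the cold lists and ERD7 had one in 1 control list, whereas the lists of LEA7 and AT3G02480 stayed as they were. With 3 lists against 3, an exact two-sided permutation test cannot go below 0.10, and none was run.

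Windows of 30 bases around the summits of members that met the criterion are shown because they give the genome sequence at each summit. They are written on the transcript strand and come from the same assembly, and the peaks themselves are wider. Windows that overlap a shown window of the same gene are left out, except that of LEA7 in cold list 2. It begins with acat, the last bases of the LEA7 window of cold list 1. Capitals mark GGAC and the related forms GAAC, where the second base differs, AGAC, where the first differs, and, with both changed, AAAC.
LEA7, cold list 1, chr1:19620301-19620330, plus strand: agagtccaaAGACaAGACaggaagctacat
LEA7, cold list 2, chr1:19620327-19620356, plus strand: acatgtcggAAACtggagaagcaatcaaga
LEA7, control list 2, chr1:19620387-19620416, plus strand: aagAGACtgcagaagcaggtaaggagaaga
AT3G02480, control list 2, chr3:512777-512806, plus strand: actGGACaacaaatgaaggagaaggcgcaa
LEA4-5, cold list 2, chr5:2089781-2089810, minus strand: cacgttggtggtggtggtgccaccgggtac
LEA4-5, control list 1, chr5:2089836-2089865, minus strand: gaccgacccgattggaagGAACactgGAAC
LEA14, control list 1, chr1:172692-172721, minus strand: cgtgactcagttgagtacttggccaaagtc
ERD7, cold list 1, chr2:7755838-7755867, minus strand: ttgttgtcttttgataaataagttAAACta
ERD7, cold list 1, chr2:7756515-7756544, minus strand: ctatgcagagtgaagaggatgaccaaaatg
ERD7, cold list 2, chr2:7757636-7757665, minus strand: tcgctcgtaatctcttccctGAACaaccag
ERD7, control list 1, chr2:7756436-7756465, minus strand: gattcttcacaagttcagtggcAAACacca

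Of the 17 summit windows of members, 13 held at least 1 of these 4 forms and 0 held TGTA, the core of a motif reported for plant m6A. Over 45751 such windows in protein-coding genes the shares were 41.8% and 18.9%. Windows of neighbouring lists overlap, so the 17 are not independent, and windows were cut from the genome, so 3 of them cross an exon boundary. Among those shown, this holds for ERD7 in cold list 1 at chr2:7756515-7756544.

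The LEA7 peaks lay in the coding sequence. Their summits were 273 and 247 bases before the last coding base in cold lists 1 and 2, with folds over the caller's background of 3.69 and 3.16, and 275 and 187 bases before it in control lists 1 and 2, with folds of 2.33 and 2.41. All folds are the authors' and hold within their own list. No LEA7 peak of any q was present in cold or control list 3, the number whose mRNA libraries had 0 and 12 LEA7 counts. Whether that low level bears on the missing peaks was not tested.

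AT3G02480 had summits 66 and 65 bases before the last coding base in control lists 1 and 2, with folds of 2.50 and 3.68 and q of 0.00241 and 5.92e-06. In cold lists 1 and 2 peaks stood at 72 and 33 bases before that base with folds of 1.78 and 1.92, but their q of 0.558 and 0.355 did not meet the criterion. Its control window carries GGAC. The deposited peaks of both conditions thus lay in the same last part of the coding sequence, although only the control ones met the criterion. The lists numbered 3 held no peak of AT3G02480.

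LEA4-5 had summits 103 and 41 bases before the last coding base in cold lists 1 and 2 (q = 0.0329 and 0.0312) and 96 bases before it in control list 1 (q = 0.00238). Control lists 2 and 3 held peaks at 103 and 160 bases with q of 1 and 0.608. LEA14 had 1 peak that met the criterion, in control list 1, 335 bases before the last coding base with a fold of 3.59, and ERD4 had 10 peaks over the 6 lists, none with a q of at most 0.05. LEA18 and LEA4-1, the 2 members of lowest count, had no peak in any list.

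ERD7 had a peak in all 3 cold lists and in control lists 1 and 2, and at a q of at most 0.01 in 2 cold lists and 1 control list. In the 3′ untranslated region a summit 71 bases after the last coding base in cold list 1 had a fold of 3.58, and one at 73 bases in control list 1 had a fold of 2.94. In the coding sequence, cold lists 1 and 3 shared a summit 422 bases before the last coding base, with folds of 2.51 and 4.14, and control list 1 had one at 343 bases with a fold of 5.07. Near the start of the coding sequence, cold list 2 and control list 2 shared a summit at 1210 bases before the last coding base. Peaks of weaker q lay at these places in other lists, so that ERD7 held 24 peaks in all lists, of which 7 met the criterion.

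**Figure D3:**
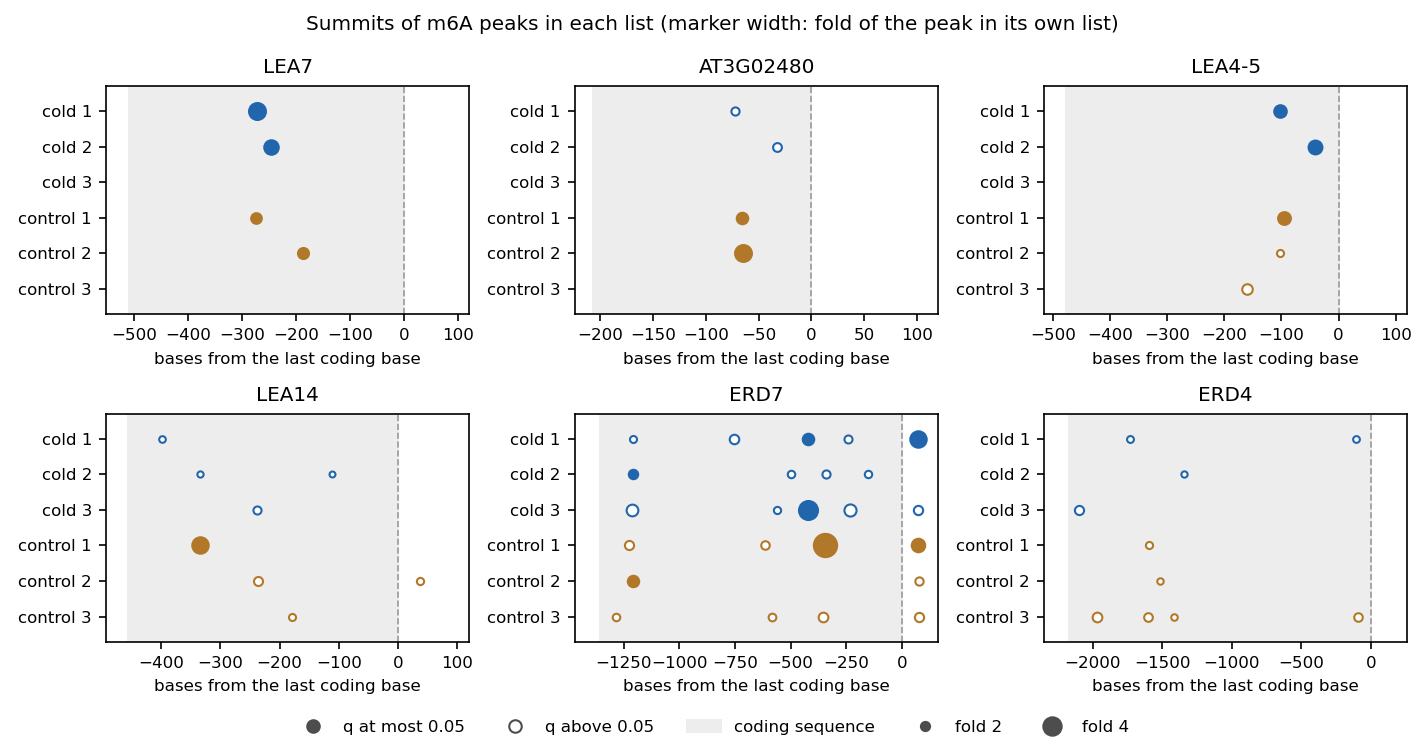
Summits of all deposited m6A peaks on the 6 members that had any, as bases from the last coding base along the transcript, with one row per list and cold lists above control lists; filled markers have a q of at most 0.05 and marker width follows the fold within a list. The summits of LEA7, AT3G02480 and LEA4-5 gather in 1 stretch of the coding sequence each, whereas those of ERD7 lie along its length and after its last coding base.

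Relatives of the 8 were read from lists that hold the other non-dehydrin LEA genes, the other ERD genes and the paralogs of ERD7 and ERD4. Their counts stand against 13.4% of all genes tested rising and 12.3% falling in mRNA, and 3.87% rising and 3.95% falling in polysomal RNA. Of 34 other LEA genes, 11 were tested in mRNA: 3 rose and 2 fell, with a median log2 change of 1.26 against -0.01 over all genes tested; without both libraries numbered 3, 4 rose and 4 fell. COR15B rose by 7.81 (SE 0.210) and COR15A by 6.60 (SE 0.495), with edgeR adjusted p of 9.79e-07 and 3.88e-04; both encode chloroplast LEA proteins that stabilise membranes on freezing, and as near copies their counts are uncertain. AT2G44060 fell by 0.64 (SE 0.144, edgeR adjusted p = 0.0132) and AT2G46140 by 1.0 (SE 0.266, 0.0253), and each call was lost without 1 of several libraries, with adjusted p up to 0.0773 and 0.104. Most of the 23 untested LEA genes are known from seeds, and they had few or no reads.

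In polysomal RNA, 3 of 12 other LEA genes tested rose and 1 fell, with a median of 0.70 against -0.02 over all genes tested. COR15A rose by 4.21 (SE 0.667, edgeR adjusted p = 0.0272) and COR15B by 3.83 (SE 0.636, 0.0294). Leaving out either cold library ended both calls, in fits with 1 cold library left. AT3G17520, a further LEA_4 gene, fell by 3.16 (SE 0.572, edgeR adjusted p = 0.0331). The call was lost with a spread shared over all 10 libraries (edgeR adjusted p = 0.0945). It was also lost without cold replicate 1 or control replicate 1, fits that leave 1 library in a group. AT3G17520 was the list's one gene to fall there. In the interaction COR15B was the 1 LEA gene of 12 to pass, with a difference of -4.04 (SE 0.582, edgeR adjusted p = 0.0247). This call was lost in 6 of the 10 fits that left out 1 library, where leaving out a polysome library leaves 1 in its group.

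Of 10 other ERD genes, 9 were tested. In mRNA, ERD6, of a sugar transporter family, rose by 1.76 (SE 0.324, edgeR adjusted p = 0.00807, and 0.0698 without both libraries numbered 3), and ERD9, a glutathione transferase, fell by 1.36 (SE 0.262, 0.00803). In polysomal RNA 3 rose and 0 fell. HSP81-2, a cytosolic HSP90 chaperone, rose by 1.86 (SE 0.295, edgeR adjusted p = 0.0272) and ERD3, a methyltransferase-like protein, by 1.28 (SE 0.231, 0.0329). Both calls were lost without either control library, in fits with 1 control library left. No ERD gene was lower there at an unadjusted p under 0.05, and none of the 9 passed in the interaction, where HSP81-2 had the lowest p (1.46, SE 0.346, adjusted p = 0.121) and DESeq2 called 2 higher.

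Of 5 relatives of ERD7, 4 were tested. AT4G15450 rose by 0.75 in mRNA (SE 0.20, edgeR adjusted p = 0.0257), a call that leaving out any of 4 libraries ended (adjusted p up to 0.0970). In polysomal RNA none passed, and AT4G15450 had the lowest p (1.15, SE 0.321, edgeR adjusted p = 0.0783). DESeq2 called 1 of the relatives higher. Of 14 relatives of ERD4 in the OSCA family, 13 were tested, and 5 rose and 3 fell in mRNA. AT4G15430 rose by 2.05 (SE 0.218, edgeR adjusted p = 6.58e-04) and AT1G10090 by 1.48 (SE 0.217, 0.00243), while RXW8 fell by 2.61 (SE 0.354, 0.00277) and AT1G69450 by 0.77 (SE 0.173, 0.0137). In polysomal RNA AT4G15430 rose by 3.28 (SE 0.322, edgeR adjusted p = 0.0170), and RXW8 and AT4G22120 fell by 1.46 (SE 0.247, 0.0302) and 1.40 (SE 0.297, 0.0441). Both falls lost their call without either control library and, for AT4G22120, without cold replicate 1. Those fits leave 1 library in a group. The OSCA genes thus moved in both directions, and the median of those tested was 0.13 in mRNA and -0.41 in polysomal RNA.

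**Figure D4:**
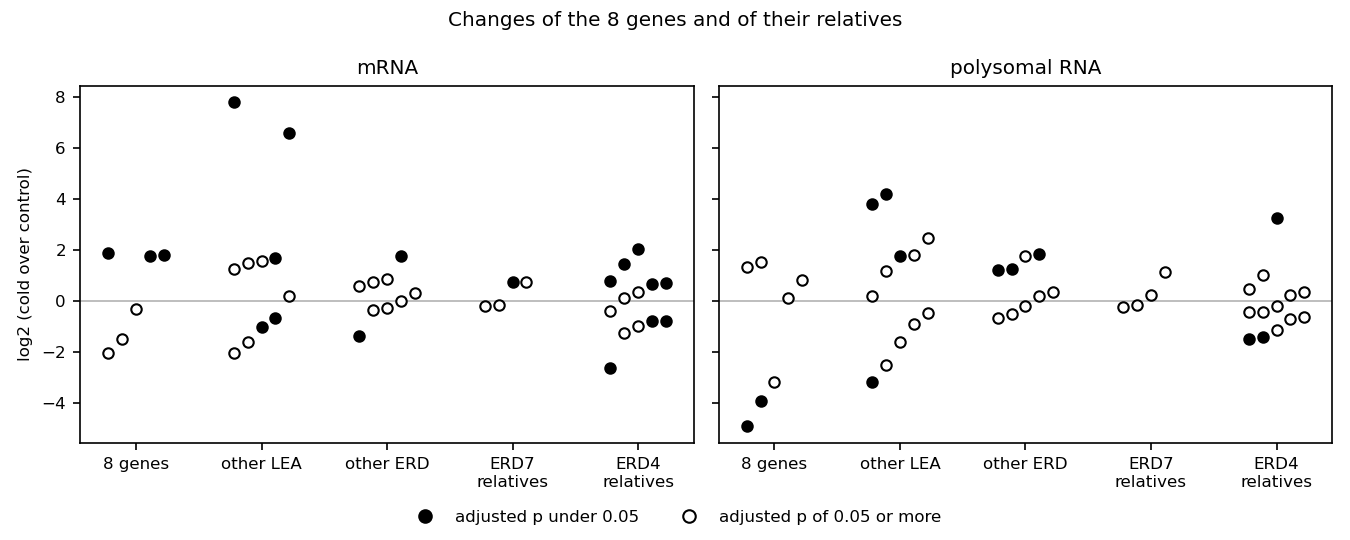
Log2 changes, cold over control, of the 8 genes and of the tested members of the 4 lists of relatives, in mRNA and in polysomal RNA; each circle is a gene, spread sideways only for legibility, and filled circles passed an edgeR adjusted p of 0.05. COR15B and COR15A stand at 7.81 and 6.60 in mRNA, and LEA7 at -4.90 and AT3G02480 at -3.91 are the lowest values shown in polysomal RNA.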

How the data were processed

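Read counts per gene for mRNA and polysomal RNA and m6A peak lists were used as the authors deposited them, made with STAR, HTSeq and MACS2 on TAIR10 per the submitters' processing notes; versions and the strand setting of counting are not given in the sources used here. In the peak lists the deposited score, fold (a ratio), −log10 p and −log10 q came per library. Peak names end in plus or minus; 98.2% to 98.9% of summits within genes of one strand lay opposite to the name, so peaks were assigned to the opposite strand. Gene models and sequences came from RefSeq's TAIR10.1, whose nuclear chromosomes span all peaks.

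Counts were tested with edgeR 4.0.16 (quasi-likelihood, TMM, filterByExpr, R 4.3.3; DESeq2 1.42.0 as an alternative) over all genes, with Benjamini-Hochberg adjustment at 0.05, and the script was tested on simulated data. CPM used TMM over the 10 libraries. Motif counts cover 250 bases before to 50 after the start; windows are 30 bases around a summit. The members and lists were chosen with earlier results of these data known. Beside the 8 members, the rule names per list and comparison up to 2 rises and 2 falls of lowest p, or the gene of lowest p, and the 2 genes most correlated with each member among genes whose log2 CPM averaged 1 or more. No 2 replicates agreed within sampling noise (chi-square per degree of freedom at least 11.4).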

Additional observations from a re-analysis of the deposited data

How the results depend on the processing

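The rises of LEA14, ERD7 and ERD4 in mRNA and the fall of LEA7 in polysomal RNA kept their direction under every alternative run, and the mRNA rises kept their call; LEA7's polysomal call was lost in 1 fit, over all 10 libraries (adjusted p = 0.0516). Same-numbered mRNA libraries deviated together only weakly (correlations of -0.04, -0.01 and 0.23). The same-numbered control library was the closest for cold mRNA replicate 3 but not for 1 and 2. Polysome libraries gave 0.47, which is 1 value, since 2 libraries deviate from their mean by equal and opposite amounts. These correlations do not settle whether equal numbers pair samples, so results with a block are given beside those without. With a replicate block, 2 members were lower in mRNA (LEA7 and LEA4-5), where 2129 of 19261 genes were. In polysomal RNA 1 member (LEA14) rose and 3 (LEA7, AT3G02480 and LEA18) fell, where 2199 of 19239 genes were higher and 2309 lower. In the interaction 1 member (LEA7) passed, where 29 of 20001 genes were higher and 74 lower. Scaling by library totals gave 1361 genes higher in mRNA (32.2% of calls higher, against 52.3% with TMM) and 8 higher and 27 lower in the interaction; it moved the median of expressed genes to -0.17 in mRNA and 0.14 in the interaction. DESeq2 called 1697 higher and 1397 lower in polysomal RNA (2 members higher), and 195 higher and 314 lower in the interaction. Without a filter on low counts 1170 genes were higher in polysomal RNA and 1 member lower. With all 10 libraries in 1 fit, polysomal calls were 2150 higher and 1766 lower, with 1 member higher and 0 lower, and 60.8% of mRNA calls were higher. Without both mRNA libraries numbered 3, 3 members were lower in mRNA, and the share of all genes lower there is not given here. Without them the interaction called 3 genes higher and 11 lower.

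Leaving out 1 library at a time, genes called in mRNA numbered 1424 to 2626 higher and 1148 to 2218 lower, members lower in mRNA 0 to 3, genes in polysomal RNA 141 to 1597 higher and 207 to 1044 lower, members there 0 to 2 higher and 1 to 2 lower, and genes in the interaction 0 to 22 higher and 1 to 115 lower. Counting every deposited peak, 6 members had a peak in at least 2 cold lists and 6 in at least 2 control lists, and at a q of at most 0.01, 2 (LEA7 and ERD7) and 2 (LEA7 and AT3G02480). The share of all genes under these rules was not counted, so these numbers cannot be set against a background. Leaving out 1 list gave 1 to 3 for cold and 0 to 3 for control. Signs turned for values that passed no test, whose ranges when 1 library was left out were -0.86 to 0.48 for AT3G02480 in mRNA (0.04 without cold replicate 3) and -0.42 to 0.56 for LEA4-5 in polysomal RNA (below 0 without cold replicate 2). In the interaction the range was -4.13 to 0.15 for LEA18 (0.10 without control mRNA replicate 3). Its -4.13 is from the fit without cold polysome replicate 1, where the cold polysome library left had 0 LEA18 counts. The ranges were -1.39 to 0.16 for LEA14, -1.38 to 0.030 for ERD7 (both above 0 without cold polysome replicate 1) and -0.16 to 0.74 for AT4G15450 (below 0 without cold polysome replicate 2). The causes were not tested. Limits: 2 polysome libraries per group, few reads for LEA18 and LEA4-1, and peak lists without read counts, so a missing peak cannot be told from low coverage.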
